A study of Mus musculus with 12 samples.

Results

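The genes described here were 8 muscle members of the kelch-like (KLHL) family, Klhl24, Klhl30, Klhl31, Klhl33, Klhl34, Klhl38, Klhl40 and Klhl41, together with Klhdc8a, a gene for a protein with kelch repeats. They were 9 of the 51826 rows of the gene count table, found by symbol, and each symbol had a single row. Klhl34 and Klhdc8a were selected because of their changes in CUG960 mice, so their values are given as a description and without a test. The other 7 members were tested.

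CUG960 mice carried the transgenes TREDT960I, which is homozygous and encodes an expanded CUG repeat RNA under a doxycycline-responsive promoter, and MHCrtTA, which is hemizygous and expresses the reverse tetracycline transactivator in cardiomyocytes. Controls carried MHCrtTA(hemi) alone. All 6 mice were female FvB mice of 10 weeks, and all received doxycycline (dox) in their chow from postnatal day 1, so that transactivator and dox were common to both genotypes. Atria and ventricles of the CUG960 +dox mice V119, V120 and V123 and of the MHCrtTA +dox controls V327, V333 and V334 gave 12 poly(A) RNA-Seq libraries, 3 in each of 4 groups. CUG960 mice and controls came from separate matings, so genotype and breeding cannot be told apart. The α myosin heavy chain promoter directs the transactivator, and with it the repeat RNA, to cardiomyocytes, whereas each library holds the RNA of all cells of the chamber.

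KLHL proteins have an N-terminal BTB domain, a BACK domain and a C-terminal propeller of kelch repeats. Many of them bind the scaffold CUL3 through the BTB domain and a substrate through the kelch repeats, and so direct ubiquitin to that substrate. In striated muscle, KLHL40 and KLHL41 are known for protecting thin filament proteins such as nebulin and leiomodin, and loss of either causes nemaline myopathy. KLHDC8A has kelch repeats but no BTB domain.

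Libraries held between 116127966 and 160676189 counts. In atria, CUG960 libraries held 120619011, 134863462 and 116127966 counts and control libraries 136770774, 149950077 and 137556236. In ventricles, CUG960 libraries held 160676189, 152709789 and 140987828 counts and control libraries 133480610, 129140369 and 130664289. Depth therefore did not overlap between genotypes in either chamber, and was lower in CUG960 atria and higher in CUG960 ventricles. Levels are given as CPM, the share of a library's counts scaled to 1e6, normalized over all 12 libraries by the TMM method of edgeR, which takes out differences in depth. The thinnest data were those of Klhl34 in CUG960 atria, with 58 to 191 counts per library.

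The chamber labels were checked on marker genes. Myl2, the ventricular myosin light chain, averaged 9407 CPM in control ventricles and 18.00 CPM in control atria, and Myl7, the atrial light chain, averaged 2842 CPM in control atria and 10.8 CPM in control ventricles. In CUG960 ventricles Myl7 was between 0.192 and 55.9 CPM, and the 5 atrial markers without Nppa summed to 10.8 CPM in V119, 13.4 CPM in V120 and 168.4 CPM in V123. In control ventricles this sum was 35.1 CPM in V327, 28.2 CPM in V333 and 73.1 CPM in V334, all above V119 and V120. The ventricular library of V123 was thus the highest, and the values of Klhl30 and Klhl38 in ventricles are also given without this mouse. The cardiomyocyte genes Myh6 and Tnnt2 had at least 22811 CPM and 3150 CPM, respectively, in every library. In these bulk tissues, fewer cells of a type and less RNA per cell cannot be told apart.

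Klhl34 was lower in CUG960 +dox mice than in MHCrtTA +dox controls in both chambers. Klhl34 lies on chromosome X (GRCm38, chrX:157818435-157820369, plus strand, GENCODE M21), and the annotation gives it 1 exon of 1935 bases that is nearly all coding. In control atria its level was 5.83, 5.07 and 6.07 CPM (V327, V333 and V334), and in CUG960 atria it was 0.454, 1.23 and 0.426 CPM (V119, V120 and V123). In control ventricles it was 9.27, 6.47 and 7.12 CPM, and in CUG960 ventricles it was 3.02, 4.42 and 3.84 CPM. All 3 CUG960 libraries of a chamber lay under all 3 control libraries of that chamber, and V120 was the highest of the CUG960 mice in both chambers.

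The level of Klhl34 was 7.99-fold lower in CUG960 atria than in control atria, a log2 fold change of −3.00 ± 0.37 (SE, n = 3 mice per group). It was 2.03-fold lower in ventricles, with a log2 fold change of −1.02 ± 0.18 (SE). Without V120 the value in atria was −3.68, so this 1 mouse moved the fold by more than 1.5 times. From high to low, the groups were control ventricles (7.62 ± 1.47 CPM, SD), control atria (5.66 ± 0.52), CUG960 ventricles (3.76 ± 0.70) and CUG960 atria (0.703 ± 0.455), and no neighbours in this order overlapped.

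The sequence around its start is shown because Klhl34 and Klhl40 were both lower in CUG960 mice. The window runs from 250 bases before to 50 bases after the RefSeq start (GRCm38.p6, chrX:157818185-157818484, plus strand). This start falls on the ATG of the coding sequence. Capitals mark the single match to the E-box CANNTG, 90 bases before the start.
Klhl34: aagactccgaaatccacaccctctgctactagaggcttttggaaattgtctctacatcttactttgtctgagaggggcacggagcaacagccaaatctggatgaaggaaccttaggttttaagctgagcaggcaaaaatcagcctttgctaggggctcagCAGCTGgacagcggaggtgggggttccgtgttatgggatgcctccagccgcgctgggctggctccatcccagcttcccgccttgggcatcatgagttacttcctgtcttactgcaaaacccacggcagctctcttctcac

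Klhdc8a was higher in CUG960 +dox mice. It lies on chromosome 1 (GRCm38, chr1:132298626-132307357, plus strand, 5 exons). In control atria its level was 10.1, 13.8 and 12.2 CPM, and in CUG960 atria it was 34.0, 36.5 and 33.3 CPM. In control ventricles it was 20.1, 22.3 and 19.99 CPM, and in CUG960 ventricles it was 68.9, 79.0 and 68.0 CPM. The genotypes were far apart in both chambers, and even the lowest CUG960 atrial library exceeded the highest control ventricular library.

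Klhdc8a was 2.87-fold higher in CUG960 atria (log2 fold change 1.52 ± 0.11, SE) and 3.46-fold higher in CUG960 ventricles (1.79 ± 0.09, SE). From high to low, the groups were CUG960 ventricles (72.0 ± 6.1 CPM, SD), CUG960 atria (34.6 ± 1.7), control ventricles (20.8 ± 1.3) and control atria (12.1 ± 1.9), again with no overlap between neighbours. Its promoter window (GRCm38.p6, chr1:132298376-132298675, plus strand, RefSeq) is given for comparison, since this gene was higher where Klhl34 was lower. Capitals mark 3 E-box matches.
Klhdc8a: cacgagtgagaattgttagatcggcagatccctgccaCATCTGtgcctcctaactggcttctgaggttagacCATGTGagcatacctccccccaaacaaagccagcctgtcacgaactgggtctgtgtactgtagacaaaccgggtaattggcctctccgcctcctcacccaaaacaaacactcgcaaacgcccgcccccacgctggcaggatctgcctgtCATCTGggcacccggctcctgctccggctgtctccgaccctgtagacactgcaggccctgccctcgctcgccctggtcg

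**Figure D1:**
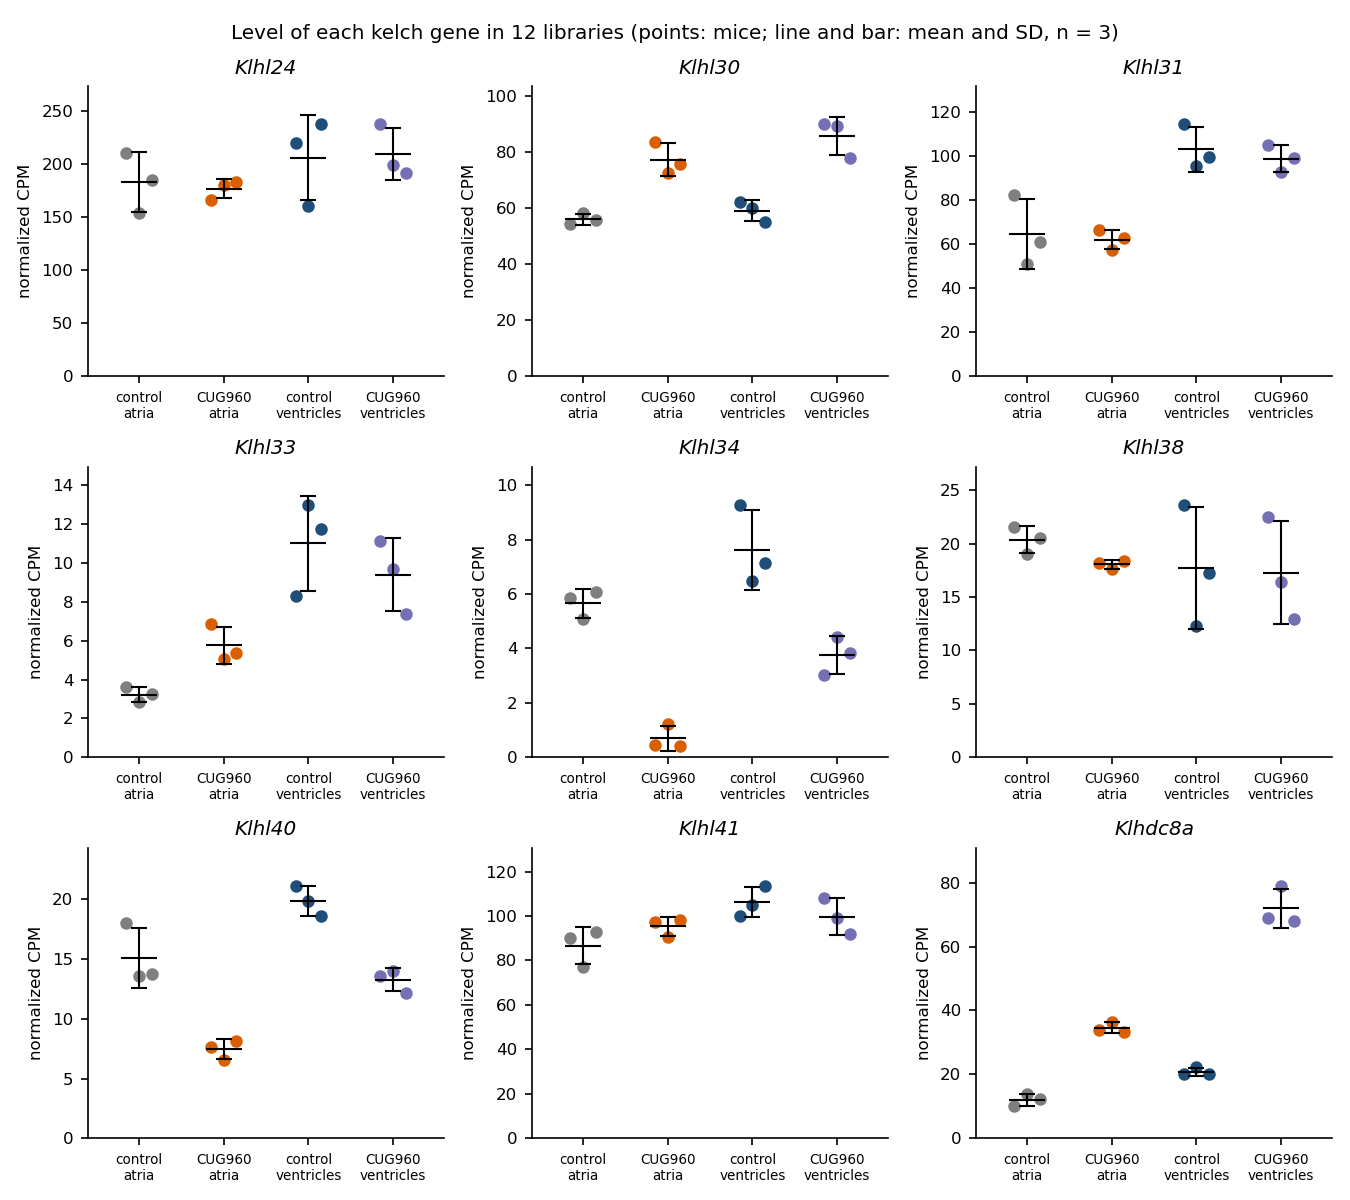
Level of each of the 9 genes in normalized CPM (y axis, from 0) for each mouse (points) in the 4 groups of 3 libraries (x axis), with the mean (line) and SD (bar). Klhl34 and Klhl40 sit lower and Klhl30 and Klhdc8a higher in CUG960 than in control libraries of both chambers with no overlap, whereas Klhl33 is higher in CUG960 libraries in atria, where control libraries are between 2.83 and 3.61 CPM.

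The 7 members not selected on their changes were compared by edgeR's quasi-likelihood test, and the Benjamini-Hochberg adjustment covered every gene tested in that chamber. Members passed with adjusted P below 0.05 and a change of 1.5-fold or more (0.585 on the log2 scale). In atria, 2 of the 7 passed it, Klhl33, which rose, and Klhl40, which fell, where 5.49% of the 17650 genes tested passed. In ventricles, 0 of the 7 passed, against 4.75% of 16909 genes. When the fold limit was dropped and adjusted P below 0.05 kept, 3 of the 7 passed in atria (Klhl30, Klhl33 and Klhl40), where 14.6% of all genes did, and 2 in ventricles (Klhl30 and Klhl40), where 9.94% did. In DESeq2, these same members had an adjusted P value under 0.05. The median log2 fold change of the 7 was −0.05 in atria and −0.06 in ventricles, beside −0.01 for all genes tested in either chamber.

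The genotypes did not overlap for 4 of the 7 members in atria (Klhl30, Klhl33, Klhl38 and Klhl40) and for 35.7% of all genes. They did not overlap for 2 of the 7 in ventricles (Klhl30 and Klhl40) and for 31.2% of all genes. A two-sided exact permutation test of 3 mice against 3 gave P = 0.1 for each of these, which is the smallest value it can give, so the adjusted P values borrow their estimate of the variation between mice from other genes.

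Among the members with known thin filament partners, Klhl40 was lower in CUG960 mice and Klhl41 was not separated between genotypes. Klhl40, which protects nebulin and LMOD3, lies on chromosome 9 (chr9:121777607-121783818, plus strand, 6 exons). In control atria its level was 17.99, 13.6 and 13.7 CPM, and in CUG960 atria it was 7.68, 6.52 and 8.18 CPM. In control ventricles it was 21.1, 19.8 and 18.6 CPM, and in CUG960 ventricles it was 13.6, 14.0 and 12.2 CPM. Every CUG960 library was below every control library of its chamber.

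Klhl40 fell 2.03-fold in atria (log2 fold change −1.02 ± 0.13, SE, adjusted P = 0.00278, edgeR). In ventricles its log2 fold change of −0.58 ± 0.09 (SE, adjusted P = 0.00614, edgeR) lay just inside the 1.5-fold limit, at 1.49-fold. Leaving out V119, V120 or V334 put the ventricular value past that limit, at −0.60, −0.62 and −0.62. The window around its RefSeq start (GRCm38.p6, chr9:121777357-121777656, plus strand) has 4 E-box matches, in capitals, and none of the other motifs searched.
Klhl40: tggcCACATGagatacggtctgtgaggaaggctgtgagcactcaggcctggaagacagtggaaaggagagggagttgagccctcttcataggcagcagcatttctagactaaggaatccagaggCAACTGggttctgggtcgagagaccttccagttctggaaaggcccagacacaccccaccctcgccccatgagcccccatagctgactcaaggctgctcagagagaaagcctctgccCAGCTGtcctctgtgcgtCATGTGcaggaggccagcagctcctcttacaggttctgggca

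Klhl41, which also acts on nebulin, was the most abundant member per length. Its level was between 77.2 and 92.8 CPM in control atria and between 90.4 and 98.3 CPM in CUG960 atria. In ventricles it was between 100.04 and 113.5 CPM in controls and between 91.8 and 108.2 CPM in CUG960 mice. Genotypes overlapped in both chambers, with log2 fold changes of 0.14 ± 0.08 and −0.09 ± 0.08 (SE, adjusted P = 0.291 and 0.554, edgeR).

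Klhl31, which is linked to the turnover of filamin C in muscle, and Klhl24, a CUL3 adaptor known for intermediate filament substrates, did not pass the test in either chamber. Klhl31 averaged 64.6 ± 15.98 CPM (SD) in control atria and 62.0 ± 4.5 CPM in CUG960 atria. In ventricles it averaged 103.0 ± 10.1 CPM in controls and 98.8 ± 6.2 CPM in CUG960 mice. Klhl24, the member with the most counts, ranged from 154.1 to 237.6 CPM over the control libraries and from 166.3 to 237.3 CPM over the CUG960 libraries of both chambers. Log2 fold changes of these genes lay between −0.06 and 0.03, with SEs of 0.09 to 0.16.

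Klhl30, Klhl33 and Klhl38 are muscle-expressed members with fewer described substrates. Klhl30 had levels of 54.2, 58.2 and 55.8 CPM in control atria and 83.8, 72.6 and 75.8 CPM in CUG960 atria. In ventricles it had 62.3, 60.3 and 55.1 CPM in controls and 90.2, 89.3 and 77.9 CPM in CUG960 mice. Controls of both chambers thus reached at most 62.3 CPM, and CUG960 libraries of both chambers had at least 72.6 CPM.

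The log2 fold change of Klhl30 was 0.47 ± 0.07 in atria and 0.54 ± 0.08 in ventricles (SE, adjusted P = 0.00488 and 0.00509, edgeR), or 1.38-fold and 1.45-fold, under the 1.5-fold limit. Leaving out V123 gave 0.60 in ventricles, past the limit, and with libraries scaled by their total counts alone the ventricular value was 0.65.

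Klhl33 had levels of 3.61, 2.83 and 3.25 CPM in control atria and 6.86, 5.05 and 5.36 CPM in CUG960 atria. In ventricles it had 8.29, 13.0 and 11.7 CPM in controls and 11.2, 9.68 and 7.39 CPM in CUG960 mice. The genotypes were apart in atria and overlapped in ventricles.

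In CUG960 atria Klhl33 rose 1.78-fold (log2 fold change 0.83 ± 0.15, SE, adjusted P = 0.0101, edgeR). In ventricles its log2 fold change was −0.23 ± 0.19 (SE, adjusted P = 0.5, edgeR). With 1 mouse left out at a time, V123 included, this value lay between −0.39 and −0.08. The difference between the chambers, tested as the interaction of chamber and genotype over all 12 libraries, was −1.06 ± 0.27 on the log2 scale (SE, adjusted P = 0.0845, edgeR) and did not pass. It had adjusted P values of 0.00393 in DESeq2 and 0.0158 in edgeR without the filter on low counts. With 1 mouse left out at a time, its adjusted P values lay between 0.0565 and 0.366 (edgeR), and it passed in none of these fits. None of the 7 tested members passed the interaction in edgeR, which 1.38% of 18327 genes did. Klhl33 and Klhl40 were the members with an unadjusted P value under 0.05 (0.00168 and 0.0224, edgeR), as were 2253 of the 18327 genes. The interaction of Klhl34, described only, was 1.98 ± 0.44 (SE) and that of Klhdc8a 0.27 ± 0.15.

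RefSeq gives Klhl33 a pair of start sites. The window of the one that lies 24 bases from the GENCODE start (GRCm38.p6, chr14:50897434-50897733, minus strand) is printed because it was 1 of the 2 windows among the members that hold a match to the MEF2 motif. Capitals mark that match, 50 bases before the start, and the E-box that follows it. The windows of Klhl34, Klhl40 and Klhdc8a above hold no match to it.
Klhl33: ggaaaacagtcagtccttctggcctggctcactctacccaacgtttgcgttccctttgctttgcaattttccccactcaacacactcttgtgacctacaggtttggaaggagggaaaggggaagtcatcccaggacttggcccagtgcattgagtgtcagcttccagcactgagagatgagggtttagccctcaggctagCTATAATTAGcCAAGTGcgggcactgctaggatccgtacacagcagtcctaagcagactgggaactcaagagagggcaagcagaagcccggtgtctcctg

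Windows were found for 6 of the 9 members, 7 windows in all, and not for Klhl24, Klhl30 and Klhl38. Both strands were searched for the E-box, spelled CANNTG, for the muscle element MCAT, which was spelled as CATTCC, for a box with the letters TATAAA, and for the MEF2 and CArG motifs by their usual consensus. No matches overlapped in the printed windows. Of the 32851 RefSeq windows of the same length, 72.3% hold an E-box, 14.7% the muscle element, 13.6% the box of TATAAA, 3.19% a MEF2 motif and 1.63% a CArG motif. The other MEF2 match was 63 bases before the start of Klhl41, whose window also held 4 E-boxes. The second window of Klhl33 had an MCAT match and an E-box, and that of Klhl31 none of these motifs. Such matches are descriptions of letters and not of bound sites.

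Klhl38 averaged 20.4 ± 1.3 CPM (SD) in control atria and 18.1 ± 0.4 CPM in CUG960 atria, which did not overlap, with a log2 fold change of −0.17 ± 0.07 (SE, adjusted P = 0.13, edgeR). In ventricles it was 23.6, 12.3 and 17.2 CPM in controls and 22.5, 16.4 and 13.0 CPM in CUG960 mice, with a log2 fold change of −0.03 ± 0.24 (SE). Without V123 this value was 0.14, and without V327 it was 0.23. An antisense gene, Gm15943, overlaps Klhl38 and had at most 152 counts in a library, where Klhl38 had at least 1293.

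**Figure D2:**
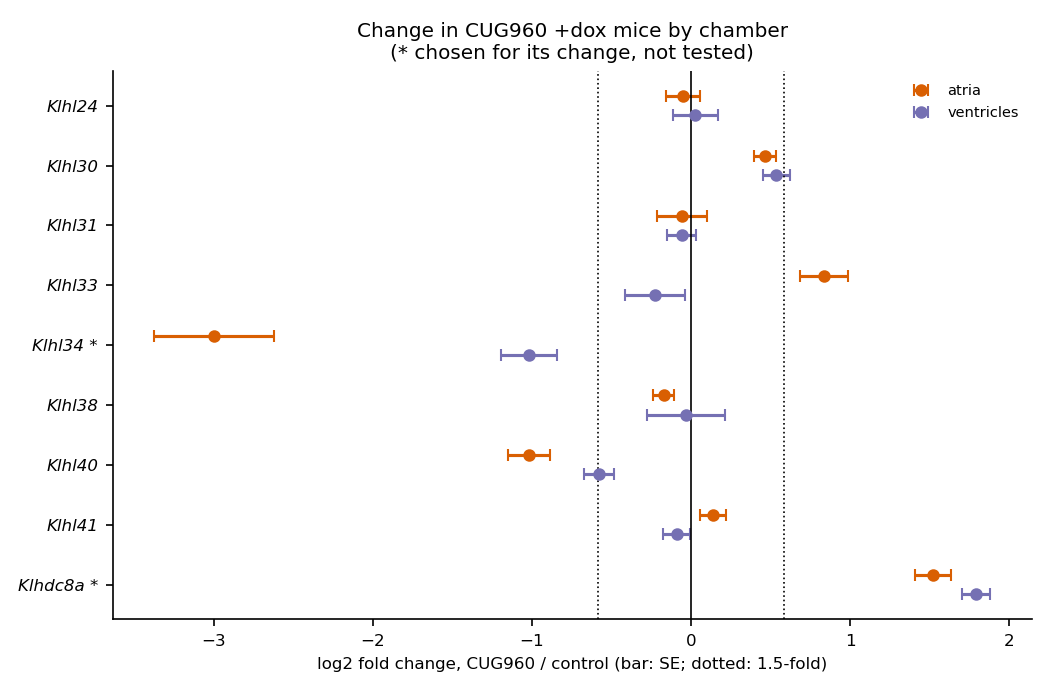
Log2 fold change of each gene in CUG960 +dox mice against MHCrtTA +dox controls (x axis) in atria and ventricles (colours), with the SE as bars, and the 1.5-fold limits as dotted lines. Klhl34 is at −3.00 in atria and −1.02 in ventricles, Klhl40 at −1.02 and −0.58, and Klhdc8a at 1.52 and 1.79, and the stars mark both genes selected on their changes.

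In comparison with atria, ventricles had higher levels of Klhl31 and Klhl33 in both genotypes, a share of the members close to that of all genes called. In controls, 2 of the 7 tested members passed the threshold, Klhl31 (log2 fold change 0.67 ± 0.14, SE, adjusted P = 0.00113, edgeR) and Klhl33 (1.77 ± 0.19, adjusted P = 5.45e-06), against 35.0% of 18327 genes. In CUG960 mice, 3 of the 7 passed, Klhl31 (0.67 ± 0.14, adjusted P = 0.00122), Klhl33 (0.71 ± 0.19, adjusted P = 0.00632) and Klhl40 (0.83 ± 0.12, adjusted P = 6.81e-05), against 33.1% of genes. All of these were higher in ventricles. Cell-type markers also differed between chambers. In controls, 6 of 7 fibroblast and 5 of 6 leukocyte markers passed as lower in ventricles, with list medians of −0.88 and −1.55. In CUG960 mice 3 of 7 and 5 of 6 did (−0.49 and −1.39). Of 6 cardiomyocyte markers, 2 passed as higher in controls (median 0.37) and 1 in CUG960 mice (0.44). Whether these markers bear on the kelch genes was not tested. Klhl40 and Klhl41 in controls had adjusted P below 0.05, with log2 fold changes of 0.39 ± 0.12 and 0.29 ± 0.08 (SE, adjusted P = 0.0125 and 0.00971, edgeR), and without V333 with adjusted P values of 0.103 and 0.0757.

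For Klhl33 the step from atria to ventricles was 3.41-fold in controls and 1.63-fold in CUG960 mice. Without V120, Klhl33 in CUG960 mice had an adjusted P value of 0.0677 (edgeR), and without V333, Klhl31 in controls was at 0.58, inside the limit. For Klhl34, the ventricular level was 1.35-fold the atrial level in controls and 5.30-fold in CUG960 mice, and for Klhdc8a it was 1.72-fold and 2.08-fold. Both steps are described and not tested, since the same libraries chose these genes.

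Chamber differences depend on the scaling. With libraries scaled by total counts alone, the median gene moved by −0.45 in controls and by −0.38 in CUG960 mice on the log2 scale, so the values above are relative to the bulk of genes. Under that scaling the chamber differences of Klhl24, Klhl30 and Klhl41 turned negative in both genotypes and those of Klhl34 and Klhl40 in controls alone, 2 of the 7 tested members passed in controls (Klhl33, higher in ventricles, and Klhl38, lower), and 0 passed in CUG960 mice. Of all genes, that scaling called 8717 in controls and 7759 in CUG960 mice, where TMM called 6420 and 6074.

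**Figure D3:**
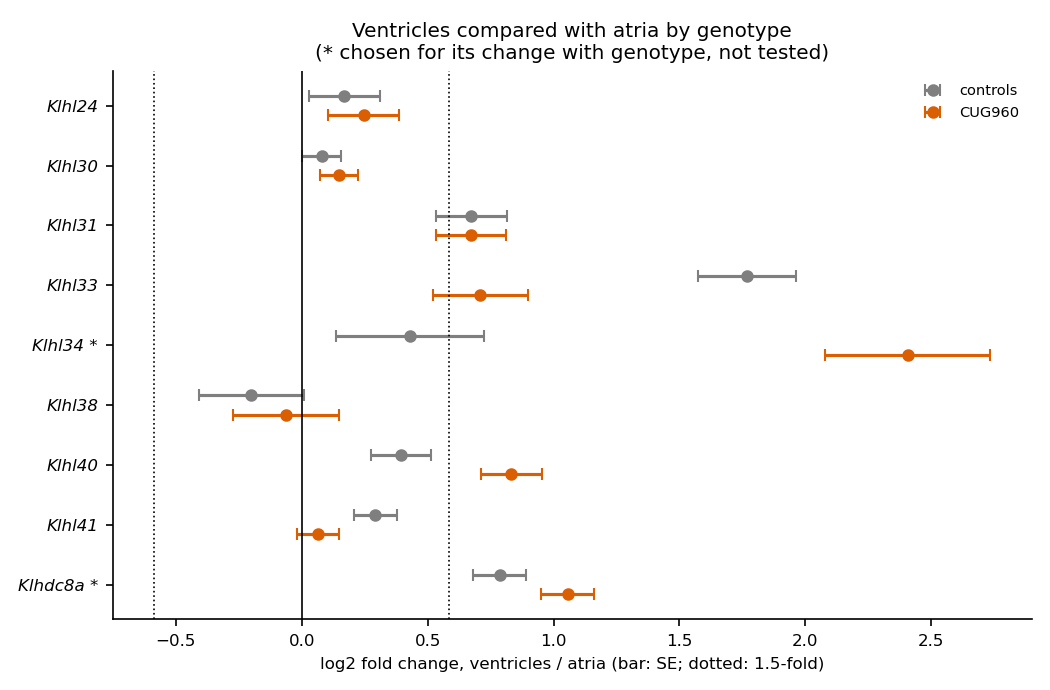
Log2 fold change of ventricles against atria (x axis) in controls and in CUG960 +dox mice (colours) for each gene, with the SE as bars, and the 1.5-fold limits as dotted lines. Klhl31 is at 0.67 in both genotypes, Klhl33 at 1.77 in controls and 0.71 in CUG960 mice, and Klhl34 at 0.43 and 2.41.

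Levels can be compared between genes only per length, here as CPM per kilobase of the union of exons in GENCODE M21. In control ventricles, Klhl41 was highest at 42.0 ± 2.7 CPM per kilobase (SD). Klhl24 (20.2 ± 3.9), Klhl30 (19.2 ± 1.2) and Klhl31 (15.9 ± 1.6) followed, where the libraries of Klhl24 and Klhl30 overlapped and those of Klhl30 and Klhl31 did not. Klhl38 (8.01 ± 2.57) and Klhl40 (7.94 ± 0.51) did not differ beyond their spread. Klhdc8a (4.87 ± 0.31) and Klhl34 (3.94 ± 0.76) were lower and overlapped, and Klhl33 was lowest at 1.75 ± 0.39. With the longest transcript in place of the exon union, Klhl24 was at 25.2.

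The order changed in CUG960 +dox mice at the members that differed between genotypes. In CUG960 ventricles Klhdc8a reached 16.9 ± 1.4 CPM per kilobase (SD), beside Klhl31 at 15.2 ± 0.9, and Klhl30 reached 27.8 ± 2.2. In CUG960 atria Klhl34 was at 0.363 ± 0.235, under Klhl33 at 0.914 ± 0.153, whereas in control atria Klhl34 was at 2.92 ± 0.27 and Klhl33 at 0.513 ± 0.063.

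**Figure D4:**
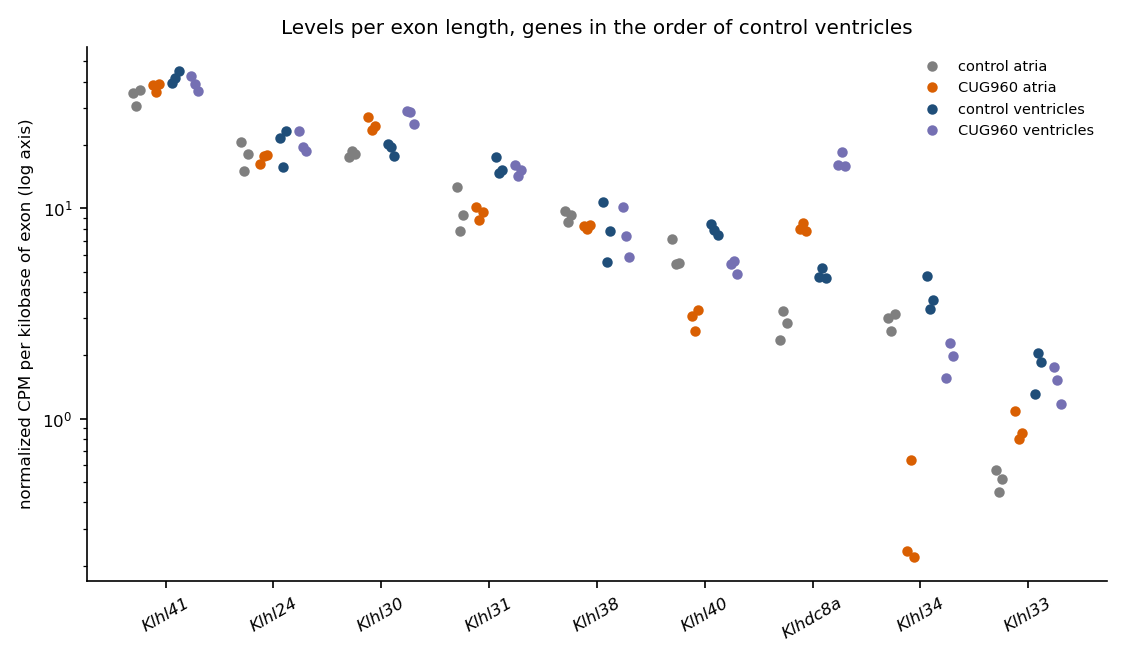
Level per kilobase of exon on a log axis (y) of each gene (x, in the order of control ventricles) in the 12 libraries (points, coloured by group). Klhl41 averages 42.0 CPM per kilobase in control ventricles and Klhl33 averages 1.75, and Klhl34 drops to an average of 0.363 in CUG960 atria.

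Likeness between members was read over the 12 libraries, where the Pearson correlation of log2 CPM between 2 members had a median of 0.283 over 36 pairs and ranged from −0.569 for Klhl30 with Klhl34 to 0.922 for Klhl30 with Klhdc8a. Both ends of that range involve a gene selected on its change. Among the 7 other members, the range was from −0.538 for Klhl30 with Klhl40 to 0.858 for Klhl33 with Klhl41. Klhl34 correlated with Klhl40 at 0.895. These values describe 12 points that share 4 group means, 6 mice and the depth of each library, and have no P value.

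Genes whose pattern over the 12 libraries was most like that of a member were taken from the 13111 genes averaging 1 CPM or more. For Klhl34 they were Dnaja4 (r = 0.967), Chst3 (0.953), Cog1 (0.952), Cstf2 (0.941) and Emp1 (0.938). Dnaja4, a co-chaperone of the HSP40 family, averaged 207.7 CPM in control atria and 148.1 CPM in CUG960 atria, and 222.2 CPM and 186.2 CPM in ventricles. The order of the groups was that of Klhl34, with smaller folds between them.

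For Klhdc8a the most similar genes were Coasy (r = 0.994), Ccne1 (0.992), Hagh (0.988), Nsmce2 (0.981) and Ptpmt1 (0.981). Ccne1, which encodes cyclin E1, averaged 0.754 CPM in control atria, 3.61 CPM in CUG960 atria, 1.93 CPM in control ventricles and 10.4 CPM in CUG960 ventricles. Hagh, a glyoxalase of methylglyoxal detoxification, averaged 37.4, 95.5, 68.4 and 163.1 CPM in the same groups. As for Klhdc8a, both were higher in CUG960 libraries of each chamber and highest in CUG960 ventricles.

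The nearest pair for Klhl40 was Gm29237 (r = 0.968) and C330006A16Rik (0.959), and for Klhl30 it was Mgat4b (0.986) and Rhof (0.972). For Klhl31 it was Hs3st5 (0.962) and Zfand5 (0.961), and for Klhl33 it was Paip2b (0.961) and 1110018N20Rik (0.961). Klhl24 was nearest Best3 (0.956) and Cpeb4 (0.893), and Klhl38 was nearest Pot1a (0.902) and Gm21985 (0.869). Klhl41 was nearest Klhl33 (0.859) and Slc46a3 (0.857), the only case in which a member was nearest to another member.

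The rest of the kelch family was measured from 3 lists of relatives, whose calls are to be read beside the 5.49% of all genes that passed in atria and the 4.75% in ventricles. Among the other KLHL genes, 33 of 34 had a row, and 31 passed the filter on low counts in atria and 30 in ventricles. In atria 1 of the 31, Enc1, an actin-associated BTB-kelch gene, fell (log2 fold change −0.62 ± 0.15, SE, adjusted P = 0.0292, edgeR) and none rose. In ventricles 1 of the 30, Klhl3, the CUL3 adaptor of WNK kinases, rose (0.77 ± 0.18, adjusted P = 0.0269) and none fell. The median log2 fold changes of −0.03 and −0.04 were close to the −0.01 of all genes. With 1 mouse left out at a time, Enc1 and Klhl3 each passed in 2 of 6 fits, and their adjusted P values reached 0.0887 and 0.0971.

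Of the 9 KBTBD genes, 8 were tested in atria and 9 in ventricles, and Kbtbd12 fell in both chambers. It had 39.0, 32.6 and 34.7 CPM in control atria and 19.7, 18.1 and 20.2 CPM in CUG960 atria. In ventricles it had 82.7, 84.4 and 82.3 CPM in controls and 44.6, 42.2 and 45.6 CPM in CUG960 mice. The genotypes were well apart in each chamber, with log2 fold changes of −0.88 ± 0.08 and −0.91 ± 0.07 (SE, adjusted P = 0.000627 and 9.26e-05, edgeR), and it passed in 6 of 6 fits that left out a mouse.

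Among 18 genes with kelch repeats and no BTB domain, the group of Klhdc8a, 17 were tested in atria and 16 in ventricles. In atria 4 of the 17 passed, where 5.49% of all genes did: Klhdc1, Klhdc8b and Klhdc9 rose and Rabepk fell. In ventricles 3 of the 16 passed, where 4.75% of all genes did: Klhdc7a and Klhdc8b rose and Rabepk fell. Klhdc8b had 35.8, 40.6 and 38.1 CPM in control atria and 65.5, 57.9 and 55.1 CPM in CUG960 atria. In ventricles it had 12.6, 15.2 and 13.0 CPM in controls and 29.98, 28.2 and 20.2 CPM in CUG960 mice.

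Klhdc8b was thus higher in CUG960 libraries of both chambers, with log2 fold changes of 0.64 ± 0.08 and 0.94 ± 0.15 (SE, adjusted P = 0.00252 and 0.00505, edgeR), though its level was lower in ventricles than in atria, unlike that of Klhdc8a. The atrial change of Klhdc8b passed in 5 of 6 fits that left out a mouse. Without V119 it was 0.56, inside the 1.5-fold limit. Rabepk, a kelch-repeat effector of RAB9, had log2 fold changes of −0.60 ± 0.08 and −0.59 ± 0.10 (SE, adjusted P = 0.0028 and 0.00761) and passed in 3 of 6 fits that left out a mouse in each chamber. Klhdc7a rose in ventricles (0.92 ± 0.11, adjusted P = 0.00149) and was at 0.81 ± 0.36 in atria (adjusted P = 0.169). Klhdc1 rose in atria (0.66 ± 0.07, adjusted P = 0.0013) and was at 0.19 ± 0.08 in ventricles (adjusted P = 0.167). Klhdc9 had at most 10 counts in a control atrial library and between 20 and 41 in CUG960 atria, and passed in 3 of 6 fits that left out a mouse, with adjusted P values up to 0.0757 (edgeR). The medians of this list were 0.03 in atria and 0.06 in ventricles.

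The CUL3 machinery, which joins KLHL adaptors to ubiquitin transfer, did not pass the threshold at any gene, where 5.49% of all genes did in atria and 4.75% in ventricles. All 23 genes for CUL3, its RING subunit, the NEDD8 pathway, CAND exchange factors and the COP9 signalosome were tested in both chambers, and with the fold limit dropped, 3 of 23 passed in atria and 1 in ventricles, where 14.6% and 9.94% of all genes did. Cul3 had log2 fold changes of 0.10 ± 0.06 and −0.09 ± 0.08, and Rbx1 of 0.02 ± 0.06 and −0.06 ± 0.08 (SE, atria and ventricles). The medians of the list were 0.04 in both chambers.

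The list of 17 thin filament genes holds the known partners of KLHL40 and KLHL41 and the genes that set thin filament length. In atria 0 of 17 passed, where 5.49% of all genes did, and in ventricles 2 of 17, where 4.75% did. Lmod1 (−0.75 ± 0.19, SE, adjusted P = 0.0372, edgeR), the leiomodin of smooth muscle, and Tmod4 (−0.71 ± 0.11, adjusted P = 0.00606), a tropomodulin that caps pointed ends, fell in ventricles. Lmod1 passed in 1 of 6 fits that left out a mouse. Neb, nebulin, was between 1.26 and 8.05 CPM in the 12 libraries, and its log2 fold change was −0.52 ± 0.29 in atria and −0.48 ± 0.61 in ventricles (SE, adjusted P = 0.271 and 0.679). In ventricles Neb had 6.18, 3.43 and 5.35 CPM in controls and 8.05, 1.26 and 1.42 CPM in CUG960 mice, so that mouse V119 was above every control and the other 2 CUG960 mice were below every control. Without V119 the log2 fold change of Neb in ventricles was −1.90 ± 0.26 (SE, adjusted P = 0.00453, edgeR), which passed, and it did not pass in the other 5 fits that left out a mouse. Lmod3 was at −0.04 ± 0.14 and 0.01 ± 0.08, and Lmod2, the cardiac leiomodin, at −0.26 ± 0.27 and −0.18 ± 0.08.

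Nrap, which anchors thin filaments at the intercalated disc, was at −0.47 ± 0.12 on the log2 scale in atria (SE, adjusted P = 0.0327, edgeR), inside the 1.5-fold limit, and passed in 1 of 6 fits that left out a mouse. The median of the thin filament list was −0.26 in atria and −0.17 in ventricles, lower than the −0.01 of all genes, with no test of the list. With the fold limit dropped, 7 of 17 genes passed in atria (6 lower and 1 higher), where 14.6% of all genes did, and 4 of 17 in ventricles (3 lower and 1 higher), where 9.94% did.

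Other muscle ubiquitin ligases formed the last list, with 29 genes tested in both chambers. Asb5 and Asb15, ankyrin repeat proteins with a SOCS box that work with CUL5, rose in atria (log2 fold changes 1.08 ± 0.14 and 0.93 ± 0.22, SE, adjusted P = 0.00233 and 0.0253, edgeR), and none fell. These were 2 of 29, where 5.49% of all genes passed. Asb5 had 3.35, 2.38 and 2.95 CPM in control atria and 6.33, 6.07 and 5.97 CPM in CUG960 atria. In ventricles 0 of 29 passed, where 4.75% of all genes did, and Asb5 and Asb15 were at 0.42 ± 0.11 and 0.41 ± 0.12 (adjusted P = 0.0393 and 0.061). The medians of the list were 0.18 and 0.04. Asb15 passed in 2 of 6 fits that left out a mouse.

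**Figure D5:**
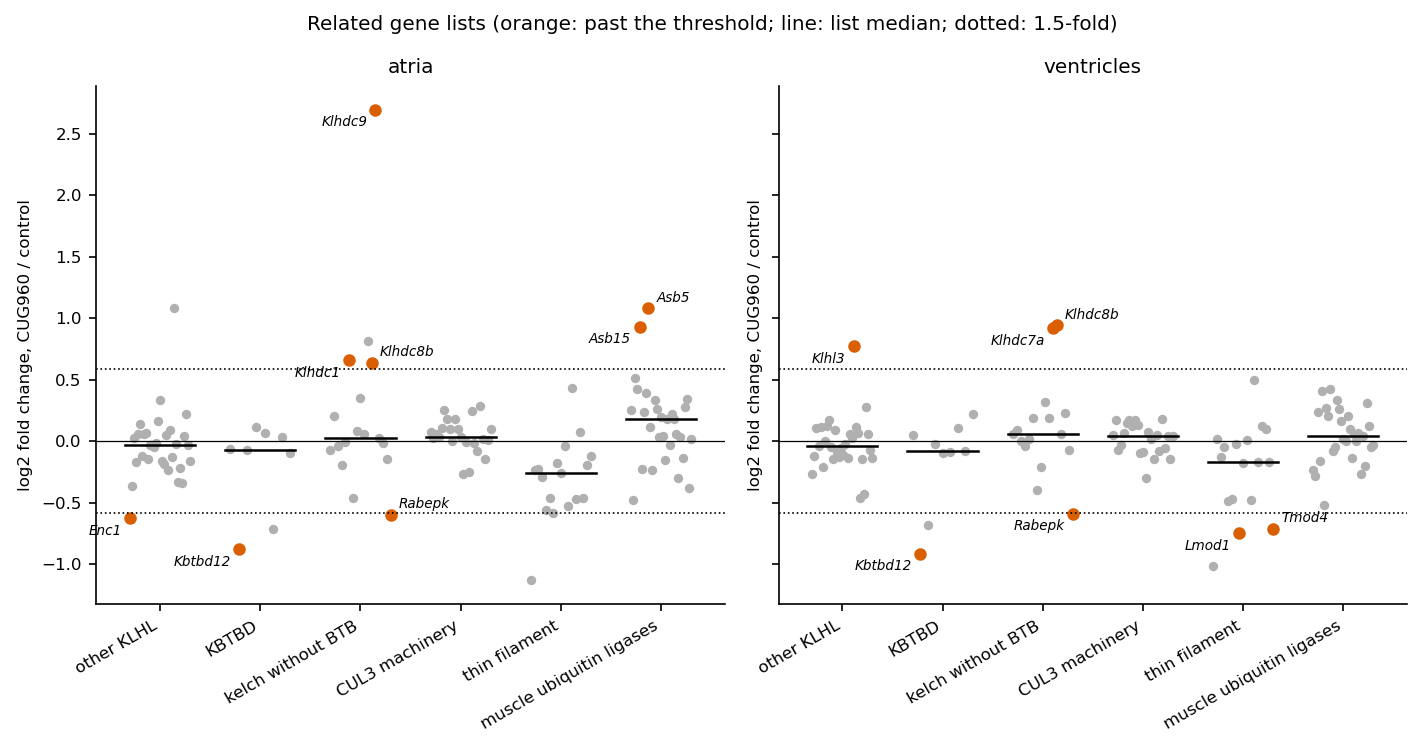
Log2 fold change in CUG960 +dox mice (y axis) of the genes of the 6 related lists (x axis) in atria and ventricles (panels), with genes past the threshold in orange, list medians as lines and the 1.5-fold limits dotted. Kbtbd12 falls in both panels, and no gene of the CUL3 machinery passes.

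Several members are better known from skeletal than from cardiac muscle, so skeletal muscle markers were read beside them. Of 15 markers, at least 11 were under 1 CPM in all 3 libraries of each group. Myh4 had 0 counts in control ventricles and Myod1 in CUG960 atria. The summed level was 49.6 to 66.6 CPM in control atria, 40.4 to 45.3 in CUG960 atria, 200.5 to 220.5 in control ventricles and 128.0 to 160.8 in CUG960 ventricles. Casq1, the most abundant of them and also expressed in heart, had log2 fold changes of −0.05 and −0.09.

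Mybpc2, fast myosin-binding protein C, made up most of the rest and fell in both chambers, from 16.5 ± 2.2 to 4.10 ± 1.13 CPM (SD) in atria and from 71.7 ± 5.2 to 15.1 ± 3.0 CPM in ventricles. In atria Tnnt3 and Tnni2 also fell, and in ventricles Pvalb and Myod1 rose from at most 0.038 CPM in controls to between 0.152 and 0.425 CPM. Without Casq1 and Mybpc2, the other 13 markers summed to 4.11 to 4.92 CPM in control atria, 2.56 to 3.24 in CUG960 atria, 1.97 to 2.79 in control ventricles and 2.58 to 4.94 in CUG960 ventricles. Their part in the levels of Klhl34 and Klhl40 was not tested.

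Of the markers of other cells, Pecam1 and Tek, which mark endothelial cells, fell in atria, where the list summed to 565.2 to 680.0 CPM in controls and 434.2 to 486.7 in CUG960 mice. In ventricles the endothelial list summed to 700.4 to 852.3 CPM in controls and 551.0 to 601.1 in CUG960 mice, also without overlap, and 3 of its 6 genes were lower at an adjusted P value under 0.05 (edgeR), all inside the 1.5-fold limit. Tagln, a smooth muscle gene, rose in atria and fell in ventricles with Myh11. Of the 5 smooth muscle markers, 2 in atria had adjusted P below 0.05 (edgeR, 1 higher and 1 lower), with a list median of 0.04. In ventricles 3 did, all lower, with a median of −0.52. Hey2 fell in atria, and Nppa rose and Ryr2 and Plin1 fell in ventricles. Of the 6 cardiomyocyte markers, 2 in atria (1 higher, 1 lower) and 1 in ventricles (lower) had adjusted P below 0.05 (edgeR). The list medians were −0.17 in both chambers. Myh6 was higher in CUG960 mice without overlap, at 25278 to 25947 CPM in control and 29449 to 30434 in CUG960 atria. In ventricles it was at 22811 to 23759 and 27396 to 28017 CPM. Nppa was lower in CUG960 atria, at 11402 to 12381 CPM beside 14628 to 16582 in controls. No fibroblast, leukocyte or erythroid marker passed in either chamber, though 2 of 7 fibroblast markers, Col1a2 and Pdgfra, were lower in atria at an adjusted P value under 0.05 (edgeR) inside the 1.5-fold limit, with a list median of −0.29. Among control atria, V334 stood apart, with 2665 CPM summed over the erythroid list and 529.3 CPM over the leukocyte list. The sums of V327 and V333 were 494.0 and 310.5 CPM for erythroid markers, and 256.3 and 218.2 CPM for leukocyte markers. Whether these shifts in other cell types bear on the kelch genes was not tested.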

How the data were processed

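Poly(A) RNA of atria and ventricles was sequenced by the study as stranded, paired-end libraries. The authors aligned reads to mm10 (GRCm38), ran RSEM 1.3.1 on an Ensembl annotation to obtain expected counts per gene, and deposited 1 table of them, in whole numbers and not scaled for library size. Whether RSEM was run with a strand setting is not given in the sources used here. Klhl17 is not analysed here. Samples were grouped by genotype and chamber as the labels give them.

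Counts were fitted with edgeR 4.0.16 in R 4.3.3 (filterByExpr, TMM, glmQLFit, glmQLFTest), with Benjamini-Hochberg adjustment over all genes tested. Genotypes were compared within each chamber. Chambers and the interaction were fitted over all 12 libraries, with no fold limit for the interaction. DESeq2 1.42.0 was an alternative. The SE is the log2 fold change divided by the square root of F. Correlations used log2 CPM with a prior count of 2. Replicates of a group differed by 41.3 to 122.0 times the counting variance, so precision is set by the mice and less by depth. The steps were run on simulated counts with known changes, as a check on the code. The simulation held no chamber differences beyond the changes set and no shared mice. It does not measure error rates in these data.

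The members and the gene lists were chosen with earlier results of these data known. Named list genes are those past the threshold for either genotype comparison, with Cul3, Rbx1, Neb, Nrap, Lmod2 and Lmod3 in any case, and the 2 genes most like each member, or 5 for Klhl34 and Klhdc8a. Marker genes, Asb10 and Asb14 do not come from this rule and were picked with their values known. The lists hold 130 genes, and 11 marker lists were read, of which 1 gene is not reported here.

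The same mice gave both chambers, so mouse numbers pair the libraries of the chambers and not of the genotypes. Deviations from the group means correlated at r between 0.0302 and 0.135 within a mouse and between −0.141 and 0.0536 across mice. Sequences are from RefSeq and coordinates from GENCODE M21, both GRCm38.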

Additional observations from a re-analysis of the deposited data

Results flagged for a closer look

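In the related lists, 2 genes of the muscle ubiquitin ligases had libraries of the 2 genotypes that did not overlap in either chamber, higher with CUG960 in atria and lower in ventricles. They were picked for this pattern from their values, and neither passed the test in either chamber. Of all genes, 35.7% had no overlap in atria and 31.2% in ventricles, each in any direction. The share of genes with the opposite pattern in both chambers was not counted. The members Klhl24, Klhl33 and Klhl41, described above, and Cul3, Rbx1 and Lmod3 also had log2 fold changes of opposite sign in the 2 chambers, of which that of Klhl33 in atria passed. Asb14, a SOCS-box gene, had 19.6, 16.4 and 16.3 CPM in control atria and 21.0, 25.3 and 24.1 CPM in CUG960 atria, and 74.8, 76.7 and 75.5 CPM in control ventricles and 67.7, 68.8 and 66.1 CPM in CUG960 ventricles. Its interaction of chamber and genotype was −0.59 ± 0.12 on the log2 scale (SE). This value is a description and has no P value here, since the gene was picked for that same pattern.

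Asb10, of the same family, had 62.8, 54.0 and 49.9 CPM in control atria and 66.7, 66.5 and 65.8 CPM in CUG960 atria, and 137.0, 132.9 and 124.7 CPM in control ventricles and 106.8, 118.5 and 111.0 CPM in CUG960 ventricles. Its interaction was −0.49 ± 0.11 (SE), likewise a description without a P value.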

How the results depend on the processing

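Of 659 alternative values of the 45 log2 fold changes of the 9 genes, 599 kept direction and side of the threshold or, for Klhl34 and Klhdc8a, which have no test, direction and size. The interaction had no fold limit. In the other comparisons, the number of genes called was moved most by the fold limit. Without it, genes called were 2573 in atria, 1680 in ventricles, and 10268 and 9952 between chambers in controls and CUG960 mice, and tested members called were 2 in ventricles and 4 between chambers in controls. With a log2 limit of 1.5, genes called were 216, 199, 2462 and 2361, and members called were 0 in atria, 1 between chambers in controls and 0 in CUG960 mice. For the interaction, DESeq2 called 660 genes and 1 member (Klhl33), which edgeR without the filter on low counts also called (1).

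Scaling by total counts alone, chosen after seeing the data, gave 1 member called in ventricles (Klhl30) and 0 between chambers in CUG960 mice. Of all genes, it called 966 in ventricles (804 with TMM) and 7759 between chambers in CUG960 mice (6074 with TMM). It turned the sign of Klhl31 (0.048), Klhl38 (0.076) and Klhl41 (0.017) in ventricles, of Klhl24 (−0.27), Klhl30 (−0.37), Klhl34 (−0.019), Klhl40 (−0.054) and Klhl41 (−0.15) between chambers in controls, of Klhl24 (−0.13), Klhl30 (−0.23) and Klhl41 (−0.32) between chambers in CUG960 mice, and of the interaction of Klhl31 (0.062), which was also 0.000832 with upper quartile scaling and 0.000214 with a minimum of 10 counts. Under it, 80.6% of genes called in ventricles were higher (63.1% with TMM), and 17.6% (47.1%) and 20.8% (47.7%) between chambers in controls and CUG960 mice, and 65.5% (50.2%) for the interaction. The cause was not tested.

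Leaving out 1 mouse gave 74 to 131 genes for the interaction, 0 to 1 members in ventricles and 1 to 2 between chambers in controls. Log2 values that turned sign ranged from −0.16 to 0.051 (Klhl24) and −0.20 to 0.15 (Klhl31) in atria, from −0.12 to 0.14 (Klhl24), −0.11 to 0.026 (Klhl31) and −0.27 to 0.23 (Klhl38) in ventricles, from −0.28 to 0.12 (Klhl38) between chambers in CUG960 mice, and for the interaction from −0.069 to 0.19 (Klhl24), −0.0048 to 0.13 (Klhl30), −0.13 to 0.10 (Klhl31) and −0.10 to 0.36 (Klhl38). With the mouse as a replicate block, the interaction of Klhl33 had an adjusted P value of 0.0652 (edgeR), and no call of a tested member changed. Genotypes share no mouse and took no block.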
